A study of Mus musculus with 4 samples.

Results

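The aryl hydrocarbon receptor (AHR) genes described here are 7 of the 21025 rows in each deposited file: the receptor gene Ahr, its partner Arnt, the repressor gene Ahrr, and the classical targets Tiparp, Cyp1a1, Cyp1b1 and Nqo1, taken by symbol. The RNA came from natural killer (NK) cells of C57BL/6 mouse liver, sorted by flow cytometry, with no gene deletion or treatment named in the labels. TRAIL+ cells (2 libraries) were TCRb-, NK1.1+, NKp46+, TRAIL+ and CD49b-, and CD49b+ cells (2 libraries) were TCRb-, NK1.1+, NKp46+, TRAIL- and CD49b+. The labels give neither the age nor the number of mice, nor whether animals were pooled. Whether the replicates are different mice is also not stated, and the p-values therefore rest on a spread between libraries that may be technical.

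AHR is a transcription factor of the bHLH-PAS family that is held in the cytosol by an HSP90 chaperone complex until it binds a planar aromatic ligand, such as a dioxin, a tryptophan product or a dietary indole. It then enters the nucleus, pairs with ARNT and binds DNA at response elements with the core GCGTG. Cyp1a1 and Cyp1b1 encode enzymes that break down such ligands, while AHRR competes with AHR for ARNT and TIPARP modifies AHR and lowers its activity, so several targets feed back on the receptor. In the liver, AHR has been described as needed to maintain resident NK cells.

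The promoter windows of the target genes are shown because the results turn on whether these genes were transcribed in cells that differed in the receptor. RefSeq windows of GRCm38.p6 (the authors used the earlier mm9) were found for 6 of the 7 genes, each running from 250 bases before to 50 bases after the start site, and none was found for Ahr. The core GCGTG was searched on both strands, and matches are in capitals (CACGC where it lies on the opposite strand). Windows are at chr13:74292282-74292581 (minus strand) for Ahrr, chr9:57697363-57697662 (plus) for Cyp1a1, chr17:79715012-79715311 (minus) for Cyp1b1 and chr3:65528197-65528496 (plus) for Tiparp, each written 5′ to 3′ along the gene.
Ahrr: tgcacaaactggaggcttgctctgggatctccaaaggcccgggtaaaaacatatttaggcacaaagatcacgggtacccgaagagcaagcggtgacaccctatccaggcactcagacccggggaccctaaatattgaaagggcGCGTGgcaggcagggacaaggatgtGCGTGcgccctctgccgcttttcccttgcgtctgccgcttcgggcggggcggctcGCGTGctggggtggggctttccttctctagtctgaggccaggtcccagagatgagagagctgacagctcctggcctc
Cyp1a1: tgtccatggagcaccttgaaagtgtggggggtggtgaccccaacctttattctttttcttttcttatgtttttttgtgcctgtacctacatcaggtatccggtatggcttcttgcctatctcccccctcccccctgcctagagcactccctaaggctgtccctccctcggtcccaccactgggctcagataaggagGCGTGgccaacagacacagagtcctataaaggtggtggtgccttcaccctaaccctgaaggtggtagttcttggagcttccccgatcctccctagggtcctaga
Cyp1b1: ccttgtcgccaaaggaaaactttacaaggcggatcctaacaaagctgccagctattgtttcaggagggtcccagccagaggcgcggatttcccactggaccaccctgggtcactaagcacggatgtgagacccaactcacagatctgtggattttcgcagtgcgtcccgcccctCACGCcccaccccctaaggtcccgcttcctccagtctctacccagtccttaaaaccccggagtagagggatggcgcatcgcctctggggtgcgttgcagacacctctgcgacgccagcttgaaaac
Tiparp: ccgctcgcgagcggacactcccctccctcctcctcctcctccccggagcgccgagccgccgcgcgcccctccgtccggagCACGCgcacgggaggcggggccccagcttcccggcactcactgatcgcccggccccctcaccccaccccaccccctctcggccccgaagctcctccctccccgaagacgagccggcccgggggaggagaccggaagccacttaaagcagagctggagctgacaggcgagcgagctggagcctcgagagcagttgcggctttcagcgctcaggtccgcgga
The Ahrr window held 3 matches, which begin 107, 82 and 27 bases before the start site, and the last of them also matched the longer form TNGCGTG. Cyp1a1, Cyp1b1, Tiparp and Arnt held 1 each, and Nqo1 none. Of all 32851 promoter windows, 32.4% held GCGTG and 5.07% held TNGCGTG on either strand, so a match is common, and it describes these letters only. The core of the antioxidant response element, TGACNNNGC, was found in 12.4% of all windows and, among the 6 genes, in that of Arnt.

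Ahr was higher in TRAIL+ cells, Arnt and Tiparp did not pass the test, and Ahrr, Cyp1a1 and Cyp1b1 had no read in any library. Values are RPKM, reads scaled by gene length and library size. Genes that reached an RPKM of 1 in 2 or more of the libraries entered a limma test on log2(RPKM + 1), and a gene is called where its p, Benjamini-Hochberg adjusted over all genes, is under 0.05. Of 10047 genes tested, 866 (8.62%) were called, 4.76% as higher and 3.86% as lower in TRAIL+ cells. Of the 7 genes 3 could be tested, and 1 was called. The libraries rested on 3786497 to 4232967 reads. These totals were worked out as the whole numbers that best fit the RPKM values of genes with an annotated length. Reads worked out per gene summed to 4068265 to 4557007, above the total in each library, and the cause was not tested. The sort markers followed the gates. Tnfsf10, which encodes TRAIL, had means of 199 and 7.10 RPKM in TRAIL+ and CD49b+ cells, and Itga2, which encodes CD49b, of 3.41 and 44.5. Klrb1c (NK1.1) and Ncr1 (NKp46) had group means of 1042 to 1148 RPKM, with single libraries from 901 to 1253 RPKM.

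Ahr stood at 12.4 and 14.5 RPKM in the TRAIL+ libraries and at 1.85 and 1.85 in the CD49b+ libraries. Both TRAIL+ libraries were high and both CD49b+ libraries low, with no overlap. The means were 13.5 ± 1.51 and 1.85 ± 0.00154 RPKM (SD, n = 2 each), a 7.30-fold difference, on 581 and 83 reads. The CD49b+ libraries held only 43 and 40 reads of Ahr, so that small SD does not measure how precisely the level is known. The ratio of reads, scaled by library totals, had an exact binomial 95% interval of 5.77 to 9.27, which covers counting error only. The log2 fold change on the log2(RPKM + 1) scale was 2.34 ± 0.20 (SE), and its 95% interval ran from 1.83 to 2.85 (limma, adjusted p = 0.00285). It was the 130th highest of 10047. In TRAIL+ cells 49.9% of tested genes lay below Ahr in mean RPKM, and in CD49b+ cells 9.18%. Ahr thus ranked near the middle of tested genes in one subset and among the low ones in the other. The call was kept in all 13 alternatives run, with adjusted p from 9.2e-05 to 0.0124, and the log2 fold change went down to 1.43 with a pseudocount of 5. In bulk RNA, fewer cells that express a gene and less RNA per cell cannot be told apart.

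Arnt, the partner that AHR needs to bind DNA, was detected at similar levels in all libraries. It stood at 22.1 and 20.1 RPKM in TRAIL+ and 18.7 and 19.2 in CD49b+ cells. The lower TRAIL+ library was just above the higher CD49b+ one, and 46.8% of all tested genes had groups that did not overlap. The log2 fold change was 0.15 ± 0.16 (SE), and its 95% interval ran from -0.26 to 0.56 (limma, adjusted p = 0.743). That interval is not a limit of detection, and a difference somewhat beyond it could also go uncalled. Within each library Arnt exceeded Ahr in RPKM, by 1.79-fold and 1.39-fold in TRAIL+ replicates 1 and 2 and by 10.1-fold and 10.4-fold in CD49b+ replicates 1 and 2. In TRAIL+ cells the mean levels ran Arnt, Ahr, Tiparp, and in CD49b+ cells Arnt, Tiparp, Ahr. The libraries of neighbouring genes in either order did not overlap.

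**Figure D1:**
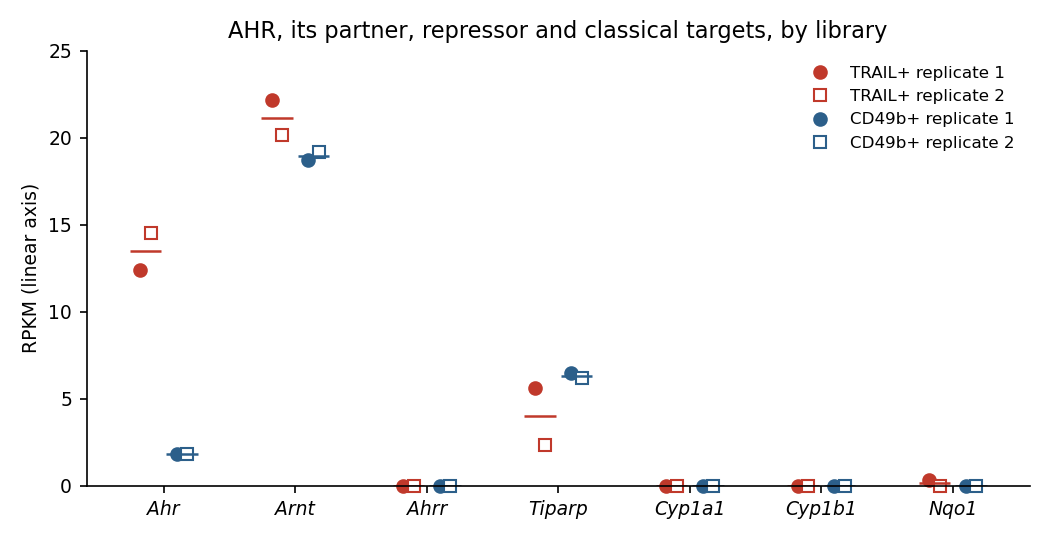
RPKM (linear axis) of the 7 genes in each library, TRAIL+ in red and CD49b+ in blue, filled circles for replicate 1 and open squares for replicate 2, with lines at the group means. Ahr lies at 12.4 and 14.5 RPKM in TRAIL+ and 1.85 in both CD49b+ libraries, while Ahrr, Cyp1a1 and Cyp1b1 lie at 0 throughout.

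None of the classical targets was called, and only Tiparp could be tested. Cyp1a1, the AHR-inducible cytochrome P450, Cyp1b1, its extrahepatic relative, and Ahrr, the repressor, were at 0 reads in the TRAIL+ and the CD49b+ libraries alike. With the transcript lengths of GENCODE M21, 3 reads over the TRAIL+ libraries, the limit that a count of 0 allows, would correspond to 0.144 RPKM for Cyp1a1, 0.0744 for Cyp1b1 and 0.0803 for Ahrr, and over the CD49b+ libraries to 0.138, 0.0716 and 0.0773. These TRAIL+ limits are 1.07%, 0.553% and 0.596% of the mean level of Ahr in the same cells. They cover counting error only, and transcripts below them could not be detected at this depth. Their promoter windows, shown above, each hold at least 1 core match.

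Nqo1, a quinone reductase gene that is a target of both AHR and the oxidative stress factor NRF2, had 2 reads in TRAIL+ replicate 1 (0.315 RPKM) and 0 in the other libraries. That is below the limit that 3 reads over a group set, 0.245 RPKM as a mean in TRAIL+ and 0.236 in CD49b+ cells, and no direction was read from it. Its group means were 0.158 and 0 RPKM. Ahrr, Cyp1a1, Cyp1b1 and Nqo1 failed the filter on low values and have no test.

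Tiparp, the target that was detected, stood at 5.61 and 2.35 RPKM in TRAIL+ replicates 1 and 2, and at 6.47 and 6.17 in CD49b+ replicates 1 and 2. TRAIL+ replicate 2 was the low library, and TRAIL+ replicate 1 lay just under the CD49b+ libraries. The log2 fold change was -0.64 ± 0.36 (SE), and its 95% interval ran from -1.53 to 0.25 (limma, adjusted p = 0.428). The sign is opposite to that of Ahr. Without TRAIL+ replicate 1 Tiparp was called lower (-1.13, adjusted p = 0.0261), and without TRAIL+ replicate 2 the value was -0.15 (adjusted p = 0.784). Relative to Ahr in the same library, Tiparp RPKM was 0.452 and 0.162 times as high in TRAIL+ cells, and 3.51 and 3.34 times in CD49b+ cells.

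**Figure D2:**
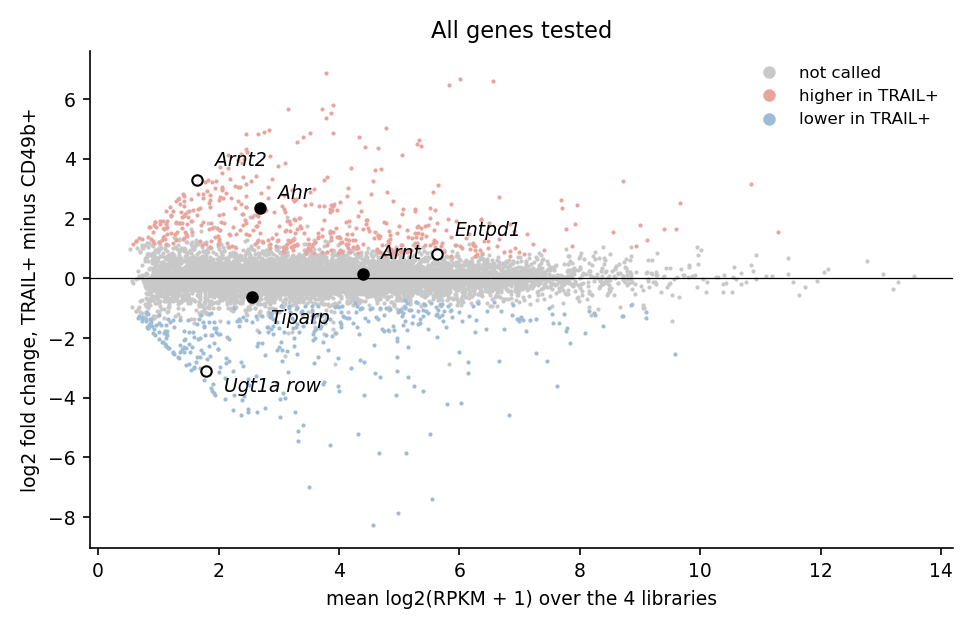
Log2 fold change (TRAIL+ minus CD49b+) of the 10047 tested genes against their mean log2(RPKM + 1) over the 4 libraries, called genes in red and blue. Ahr (2.34) lies among the called genes, Arnt (0.15) and Tiparp (-0.64) in the grey band, and the open circles mark Arnt2, the Ugt1a row and Entpd1 from the pathway lists.

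The other genes of the pathway were taken from 6 lists. Without the 7 genes, 79 listed genes had a row, 52 passed the filter, 3 were called higher and 3 lower (11.5% called, against 8.62% of all tested genes), and their median log2 fold change was -0.06, against 0.01 over all tested genes. The higher genes were Arnt2, Ddc and Entpd1, and the lower ones the Ugt1a row, Slc7a5 and Haao. Of these, Arnt2, Ddc, the Ugt1a row and Haao passed the filter on the group where they are high, so that they differ was in part fixed by the filter.

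Arnt2, a close relative of Arnt that can also pair with bHLH-PAS factors, had reads in the TRAIL+ libraries and none in the others. It stood at 10.9 and 6.90 RPKM in the TRAIL+ libraries, on 266 and 157 reads, and at 0 reads in both CD49b+ libraries. With the CD49b+ group set to a limit of 3 reads, Arnt2 was at least 146.5-fold higher in TRAIL+ cells. The log2 fold change was 3.28 ± 0.28 (SE, limma, adjusted p = 0.00265). The call was kept in all 13 alternatives (adjusted p 4.20e-05 to 0.00916), at log2 fold changes from 1.46 with a pseudocount of 5 to 8.72 with voom on reads. In TRAIL+ replicates 1 and 2 its RPKM was 49.1% and 34.2% of that of Arnt.

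Among 19 bHLH-PAS genes, 10 were tested, and Arnt2 was the only one called (8.62% of all tested genes were). Arnt2 passed the filter through the TRAIL+ libraries alone, so its difference was in part fixed by the filter. Hif1a, which encodes the oxygen-regulated factor that also pairs with ARNT, stood at 26.4 and 23.8 RPKM in TRAIL+ and 26.8 and 27.8 in CD49b+ cells (log2 fold change -0.12 ± 0.16). Arntl, which encodes the clock factor BMAL1, had a log2 fold change of -0.04 ± 0.24, with a sign that turned to 0.09 without TRAIL+ replicate 2 and to 0.15 without CD49b+ replicate 2. Of the family, 4 genes had 0 reads in all libraries. Npas1, named after its value was seen and not tested, had 9 and 3 reads in the CD49b+ libraries and 0 in both TRAIL+ libraries.

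Of the 6 listed genes of the cytosolic AHR complex, 5 passed the filter. Src, a kinase gene named after its value was seen, did not, at 0.566 and 0.541 RPKM in TRAIL+ and 0.242 and 0.521 in CD49b+ cells. Hsp90ab1, for the HSP90 chaperone itself, stood at 546 and 489 RPKM in TRAIL+ and 628 and 625 in CD49b+ cells (log2 fold change -0.28 ± 0.19). Of 5 chaperone genes tested 0 were called by limma, 0 had an unadjusted p under 0.05 and 0 were called by voom. Of all tested genes, 20.0% had an unadjusted p under 0.05 and 8.92% were called by voom. The chaperone genes had a median log2 fold change of -0.28.

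Of 13 genes for cofactors and turnover of AHR, 0 were called by limma (8.62% of all tested genes were). Only Rb1, named after its value was seen, had an unadjusted p under 0.05 (20.0% of all tested genes) and was called by voom (8.92%). Rb1, the retinoblastoma gene, stood at 16.2 and 15.8 against 9.19 and 8.36 RPKM, and its log2 fold change was 0.80 ± 0.18 (adjusted p = 0.0543 by limma and 0.0461 by voom). Rb1 was also called with the replicate number as a block (0.0115) and after the correction for gene length (0.0237). Ep300 and Crebbp, also named after their values were seen, differed between replicates of a subset. Ep300, for p300, stood at 23.4 and 6.59 RPKM in TRAIL+ replicates 1 and 2 and at 30.0 and 16.6 in CD49b+ replicates 1 and 2. Crebbp, for the related CBP, stood at 10.3, 2.07, 6.52 and 3.95 in the same order. In both genes replicate 2 was the lower one of each subset, and TRAIL+ replicate 2 the lowest of all, as for Tiparp. What part this spread has in the Tiparp result was not tested.

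Other target genes moved in both directions. Of 14 listed, 13 had a row and 5 were tested, with 1 called higher and 1 lower (40.0%, against 8.62% of all tested genes). Entpd1, for the ATP-degrading enzyme CD39, stood at 67.6 and 61.6 RPKM in TRAIL+ and 34.5 and 37.5 in CD49b+ cells, higher by 1.79-fold. Its log2 fold change was 0.83 ± 0.16 (limma, adjusted p = 0.0337). Both TRAIL+ libraries were above both CD49b+ libraries. Entpd1 was not called when CD49b+ replicate 1 (adjusted p = 0.432) or replicate 2 (0.301) was left out, or with eBayes without a trend (0.0546).

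The Ugt1a row, which pools transcripts of the UDP-glucuronosyltransferase 1A locus under the symbol Ugt1a6a, went against Ahr. Ugt1a6 is a classical AHR-inducible conjugating enzyme, and since the row pools 1A transcripts it cannot be told apart from the others. The row stood at 0.276 and 0.0809 RPKM in TRAIL+ and 8.34 and 10.04 in CD49b+ cells, on 14 and 733 reads over the groups. The row was nearly silent in the subset where Ahr was high, and it passed the filter through the CD49b+ libraries alone. The fold was 51.6, and the log2 fold change -3.11 ± 0.23 (SE, limma, adjusted p = 0.00196). The call was kept in all 13 alternatives, at values from -1.45 with a pseudocount of 5 to -5.79 with voom.

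Kit, the stem cell factor receptor gene that AHR drives in other innate lymphoid cells, stood at 5.81 and 8.12 RPKM in TRAIL+ and 11.7 and 12.5 in CD49b+ cells. The log2 fold change, -0.73 ± 0.22, was not called (limma, adjusted p = 0.131). It was called lower without TRAIL+ replicate 2 (-0.95, adjusted p = 0.0409) and with the replicate number as a block (adjusted p = 0.0277). Il22, the AHR-dependent cytokine of group 3 innate lymphoid cells, and Cyp1a2, the hepatocyte member of the Cyp1 family, were at 0 reads in all 4 libraries. Of the listed target genes 5 had no read at all.

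**Figure D3:**
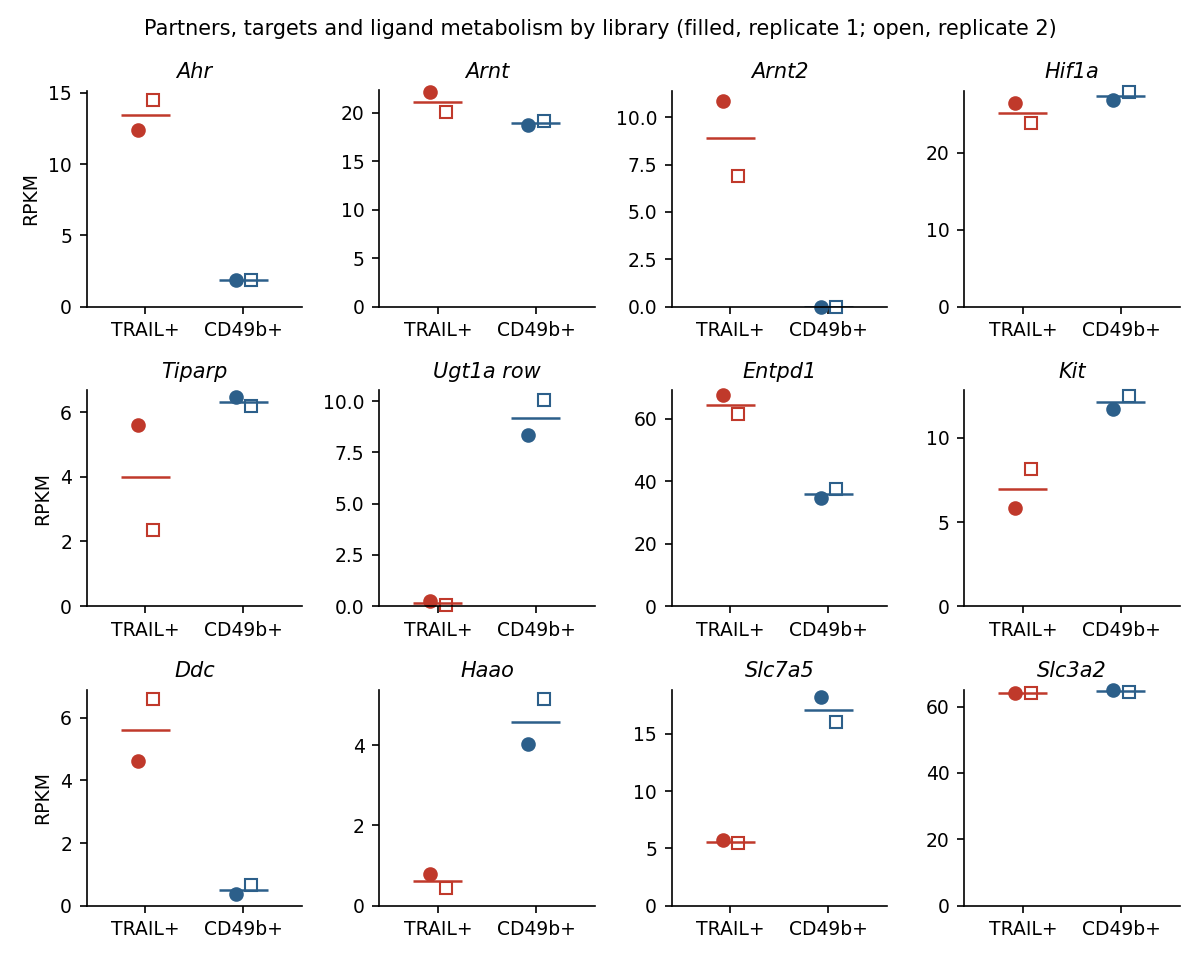
RPKM by library (filled, replicate 1; open, replicate 2; lines, group means; each axis from 0) for Ahr, its partners, target genes and genes of ligand metabolism. Of the called genes, Ahr, Arnt2, Entpd1 and Ddc lie higher in both TRAIL+ libraries, and the Ugt1a row, Haao and Slc7a5 lower. Of the uncalled genes, Arnt also lies higher in both, and Kit, Tiparp, Hif1a and Slc3a2 lower. Groups did not overlap in 46.8% of all tested genes.

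NRF2, the oxidative stress factor that also drives Nqo1, and its inhibitor KEAP1 were transcribed in both subsets. Nfe2l2, which encodes NRF2, stood at 37.2 and 36.5 RPKM in TRAIL+ and 31.9 and 29.3 in CD49b+ cells (log2 fold change 0.26 ± 0.16, limma, adjusted p = 0.462). Keap1 stood at 32.8 and 27.0 against 21.3 and 17.4 RPKM (0.60 ± 0.19, limma, adjusted p = 0.156). It was called higher only with the replicate number as a block (adjusted p = 0.0193) and after a correction for gene length (0.0402) among the 13 alternatives. Of 13 genes of the NRF2 list tested 0 were called by limma and 0 by voom, against 8.62% and 8.92% of all tested genes. An unadjusted p under 0.05 was found for 3 (20.0% of all tested genes had one), Keap1, Maff and Txnrd1, all with higher values in TRAIL+ cells. Maff, a small MAF partner of NRF2, had a log2 fold change of 1.31 ± 0.31 and Txnrd1, thioredoxin reductase, of 0.61 ± 0.17. Both names were chosen after seeing the values, and both genes were called higher without TRAIL+ replicate 2 (limma, adjusted p = 0.0248 for Maff and 0.0497 for Txnrd1) and with the replicate number as a block (0.00138 and 0.0106).

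Genes that make or carry tryptophan-derived AHR ligands divided by member. Of 15 listed 7 were tested, with 1 called higher and 2 lower (42.9%, against 8.62% of all tested genes). Ddc, the aromatic amino acid decarboxylase that makes serotonin and tryptamine, stood at 4.63 and 6.60 RPKM in TRAIL+ and 0.361 and 0.648 in CD49b+ cells, on 86 and 8 reads. The groups were far apart, at 11.1-fold in the means, and the log2 fold change was 2.13 ± 0.26 (limma, adjusted p = 0.00831). Haao, an enzyme late in the kynurenine pathway, stood at 0.796 and 0.428 against 4.02 and 5.15 RPKM, on 6 and 46 reads (-1.79 ± 0.25, limma, adjusted p = 0.0123). Both genes passed the filter only through the group where they are high, so that they differ was in part fixed by it. Neither gene could be tested with an RPKM minimum of 5.

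Slc7a5, the light chain of the LAT1 transporter that carries tryptophan and kynurenine into the cell, stood at 5.72 and 5.47 RPKM in TRAIL+ and 18.2 and 16.0 in CD49b+ cells. The CD49b+ values were above both TRAIL+ values, by 3.06-fold in the means. The log2 fold change was -1.46 ± 0.19 (limma, adjusted p = 0.00885). Slc7a5 was not called when CD49b+ replicate 1 (adjusted p = 0.113) or replicate 2 (0.0704) was left out. Slc3a2, the heavy chain of the same transporter, stood at 64.1 and 64.0 against 65.1 and 64.5 RPKM (-0.02 ± 0.15). Ido1, which starts the kynurenine pathway, was at 0 reads in all libraries. Il4i1, an oxidase that makes indole AHR ligands, stood at 1.65 and 2.997 against 1.09 and 1.28 RPKM and missed the threshold (0.58 ± 0.28, limma, adjusted p = 0.367).

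**Figure D4:**
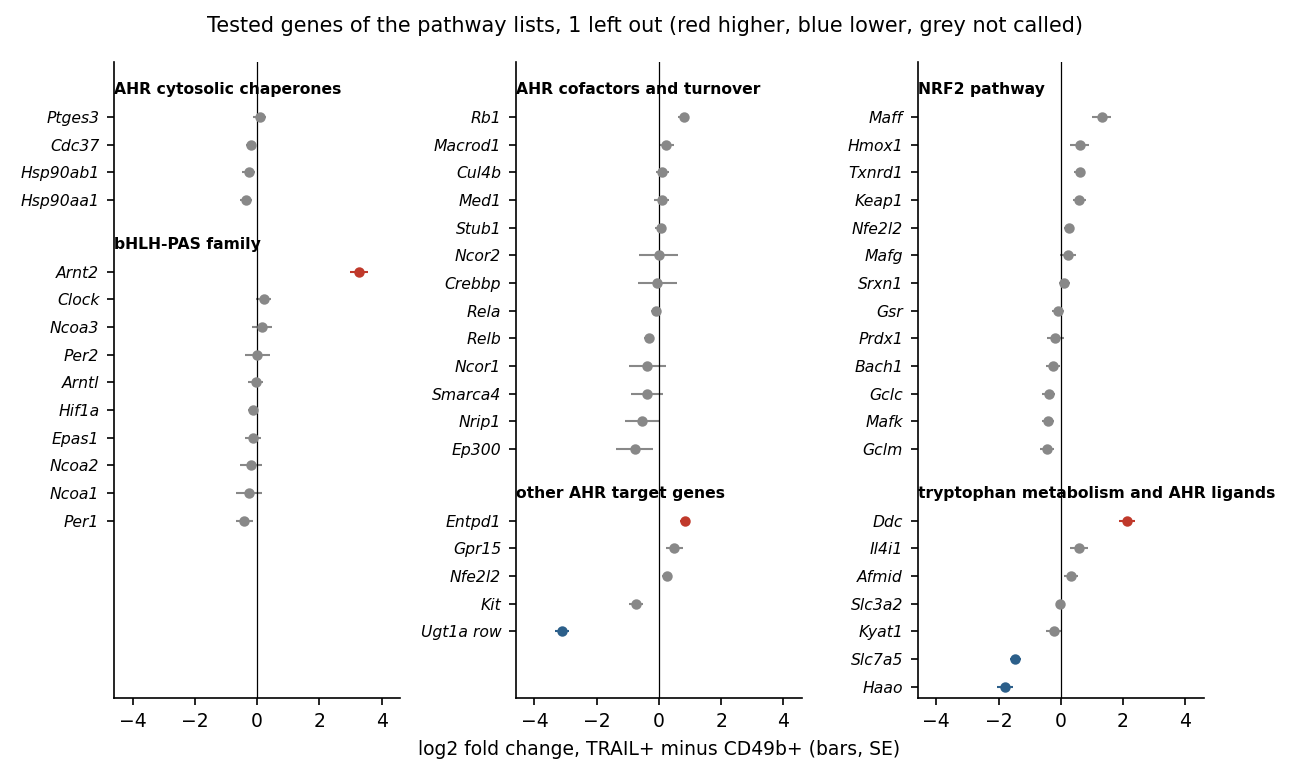
Log2 fold changes (TRAIL+ minus CD49b+, bars SE) of the tested genes of the 6 pathway lists, with 1 uncalled chaperone gene left out, called genes in red (higher) and blue (lower). The called genes are Arnt2, Entpd1, the Ugt1a row, Ddc, Slc7a5 and Haao, and all others are grey.

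The genes most like Ahr were taken as the 5 tested genes with the smallest distance between centred log2(RPKM + 1) profiles over the 4 libraries, which share the contrast of the groups. They were the polarity gene Crb3 (distance 0.132), the inhibitory receptor gene Lilrb4a (0.134), Islr (0.195), Susd2 (0.1998) and the protease inhibitor gene Spint2 (0.207). Their means in TRAIL+ and CD49b+ cells were 4.62 and 0.211 RPKM for Crb3, 31.7 and 5.74 for Lilrb4a, 3.74 and 0 (no read) for Islr, 4.77 and 0.300 for Susd2 and 83.2 and 16.5 for Spint2. Many genes differ by about as much between the subsets on that scale, so this order describes the profiles only. In mean RPKM the folds were 21.9 for Crb3, 15.9 for Susd2, 5.54 for Lilrb4a and 5.03 for Spint2, against 7.30 for Ahr. Crb3, Islr and Susd2 passed the filter through the TRAIL+ libraries alone, so that they differ was in part fixed by it.

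Markers of other cells were summed per library, since AHR and its targets are also expressed in T cells, other innate lymphoid cells, hepatocytes and stromal cells. Of 8 listed T cell genes 6 had a row and 4 were tested. All 4 (Cd3d, Cd3e, Cd4 and Cd8a) were called higher in TRAIL+ cells, as Ahr was (4.76% of all tested genes were). Cd4 and Cd8a passed the filter through the TRAIL+ libraries alone, so their difference was in part fixed by it. The 6 genes together summed to 66.5 and 125 RPKM in TRAIL+ and 15.6 and 14.4 in CD49b+ cells. Cd3d had means of 45.0 and 10.3 RPKM in the subsets, Cd3e of 32.2 and 3.25 and Cd8a of 14.2 and 0.113. Cd8b1 and Cd5 reached at most 1.16 and 0.590 RPKM in a library and were not tested. Cd8b1 had 1 read over the TRAIL+ libraries and 8 over the CD49b+ libraries, opposite to the called genes, and Cd5 had 5 and 5. The Cd3d call was lost without CD49b+ replicate 1 (limma, adjusted p = 0.0507) and replicate 2 (0.0566), and the Cd4 call without CD49b+ replicate 2 (0.0648). The part of these markers in the results on Ahr and its pathway was not tested. The list of other innate lymphoid cells summed to 60.4 and 63.4 against 39.6 and 43.3 RPKM, nearly all of it Gata3 and Il7r (means of 32.8 and 29.1 RPKM in the TRAIL+ libraries, 29.8 and 11.5 in the others). Il7r was called higher (limma, adjusted p = 0.0392), a call lost without CD49b+ replicate 1 (0.256) and replicate 2 (0.0553). Of this list, Il17a, Il22 and Il13 had 0 reads in all libraries.

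The summed hepatocyte and myeloid markers were higher in replicate 1 of both subsets, but not every gene was. Hepatocyte genes summed to 22.1 and 4.38 RPKM in TRAIL+ replicates 1 and 2 and to 30.6 and 1.88 in CD49b+ replicates 1 and 2, with Alb at 12.7, 1.93, 14.8 and 0.865 and Fabp1 the next most abundant. Kupffer cell and monocyte genes summed to 91.0 and 15.7, and to 129 and 10.98 RPKM, most of it Lyz2, with Csf1r next. Of this list, Clec4f stood at 0.918 and 1.32 RPKM in TRAIL+ replicates 1 and 2 (21 reads) and at 0.196 and 0 in CD49b+ replicates 1 and 2 (2 reads). Cd5l stood at 1.32 and 3.23 against 1.04 and 0.498 RPKM and was not called (limma, adjusted p = 0.299), and Cd163 at 0.109 and 0 against 0.839 and 1.13 RPKM. The part of these cells in the results was not tested. Dendritic cell genes summed to 52.4 and 19.8, and to 41.3 and 10.1 RPKM, most of it H2-Ab1. Xcr1 was called higher, at means of 3.09 and 0.0816 RPKM in the subsets, and it too passed the filter through the TRAIL+ libraries alone. Of the untested dendritic cell genes, Zbtb46 stood at 0.532 and 0.531 RPKM in TRAIL+ and at 1.17 and 0.944 in CD49b+ cells. TRAIL+ and CD49b+ replicates 1 held 3 and 18 reads of Siglech, 7 and 1 of Flt3 and 1 and 2 of Clec9a, and replicates 2 none. B cell genes, led by Cd79b and Cd79a, summed to 22.01 and 15.7, and to 23.3 and 12.2 RPKM. Endothelial and stellate genes summed to 53.0 and 43.3, and to 43.8 and 41.4 RPKM, all but a small part of it Pecam1, with Col1a1 next and 4 of 9 genes at 0 in all libraries. Mast cell and basophil genes summed to 7.47 and 10.7, and to 13.2 and 13.7 RPKM, most of it Kit, with Cpa3 next.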

How the data were processed

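PolyA RNA of sorted mouse liver NK cells was measured in 4 libraries, with groups and replicate numbers read from their titles. The authors deposited 1 RPKM value per gene and library, per the file headers. The submitters' processing notes name TopHat 1.4.1 as the aligner and mm9 as the build. How reads were counted, on which annotation and with or without strand is not given, so reads of overlapping or antisense genes may be mixed.

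Rows were named through RefSeq genes of GRCm38.p6 (20661 by accession, 191 by symbol, 65 by synonym, 108 by the name in the file). For 99.971% of 13681 rows above 0, a gene length was found that makes all values whole reads within a relative tolerance of 1e-09. After random scaling of the libraries, 0 of 500 rows were whole. The length so found lay within 10% of the annotated one for 81.1% of 10858 single-accession rows.

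The test was that of limma 3.58.1 (R 4.3.3) on log2(RPKM + 1) (lmFit, eBayes with a trended prior, subset as the only term, 2 residual degrees of freedom). The fit was also run on simulated reads with a fixed dispersion and no replicate effect. That run does not give the error rate in these data. With 2 against 2, single-gene permutation tests were not used. Alternatives were 2 other pseudocounts, 2 other filters, another scaling, no trend, voom, a replicate block, each library left out, and a gene length correction chosen after seeing the data. For voom, TMM factors were computed on the reads worked out from the RPKM values.

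The members and lists were chosen with earlier results of these data known. Genes named are the members, 13 fixed genes, from each pathway list the called genes with the largest changes (at most 4, plus at most 2 that went the other way), the gate genes, the 2 most abundant markers of each other cell type and the genes most like Ahr. Slc3a2 and the further T cell, myeloid, dendritic and innate lymphoid markers were named after their values were seen, as were the genes of which the text says so. Some listed genes are not reported here.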

Additional observations from a re-analysis of the deposited data

How the results depend on the processing

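Of 319 values of 25 tested named genes (gate genes and markers of other cells not counted) under alternatives, 299 kept direction and side of the threshold, 13 passed it newly, 5 no longer passed it and 2 changed sign. Of the called markers, Cd3d, Cd4 and Il7r lost their calls with a CD49b+ library left out. Ahr stayed called and Arnt stayed uncalled in all 13 alternatives. Tiparp ranged from -1.13 to -0.15 with 1 library left out, and passed as lower without TRAIL+ replicate 1. Over all genes, 478 were higher and 388 lower in TRAIL+ cells, against 245 to 777 and 198 to 763 with 1 library left out, and 733 higher after the correction for gene length. Of the pathway lists, 3 genes were higher and 3 lower, against 2 to 5 and 2 to 5 with 1 library left out, and 6 higher after the length correction. Arntl (-0.04) ranged from -0.23 to 0.15 with 1 library left out, and its sign turned to 0.09 without TRAIL+ replicate 2 and to 0.15 without CD49b+ replicate 2. The cause was not tested. Leaving out a library leaves 1 sample in its group, which is assumed to vary like the others.

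The titles number the replicates, but nothing in the labels ties equal numbers to a shared mouse or day. The deviations of both replicates 1 from their group means correlated over 10047 tested genes with r = 0.563, and 2 pairs are too few to pair the samples by. With the replicate block, 1049 genes were higher and 833 lower, and 7 and 5 of the pathway lists. At these depths 1 read in a gene of 2 kilobases is worth 0.118 to 0.132 RPKM, and target genes at 0 reads are not shown to be absent.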
